A study of Mus musculus with 58 samples.

Results

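Cells show short peptides from their own proteins on MHC class I molecules, and 9 genes of this pathway were followed here through the RNA-seq, ATAC-seq and ChIP-seq libraries of mouse hematopoietic stem cells (HSCs). The genes were H2-K1, H2-D1, B2m, Tap1, Tap2, Tapbp, Psmb8, Psmb9 and Nlrc5. They were chosen by symbol for their known role, and all 9 were found among the 55376 genes of the RNA count files. The study asked how caloric restriction (CR) and refeeding change HSCs, and whether the receptor genes Kdr and Bmpr1a take part. HSCs of male C57BL/6 mice were sorted as LSK CD34-Flk2-CD150+ cells. OAL mice were 24 to 26 months old and fed ad libitum, OCR mice of the same age had lifelong 40% CR, and OCRRF mice had 4 weeks of free feeding after lifelong CR. YAL mice were 3 to 4 months old and fed ad libitum, YCR mice had 20% CR in the first week and 40% CR for 3 weeks, and YCRRF mice were then refed for 4 weeks. Each diet group had 4 RNA libraries except OCRRF, which had 2. In the knockdown experiment, HSCs of aged mice were infected with a GFP virus carrying a Kdr shRNA (KdrKD), or with that virus and an mCherry virus carrying a Bmpr1a shRNA (KdrBmpr1aKD), and were transplanted into lethally irradiated CD45.1 recipients. Donor LSK CD48-CD150+CD45.2+ cells were then sorted. Each knockdown had 4 libraries and its own scramble control (KdrScr, KdrBmpr1aScr) 2. There was 1 Kdr shRNA, and replicates 1 and 2 of the double knockdown carried Bmpr1a shRNA 1 and replicates 3 and 4 shRNA 2. The labels do not tie libraries to single mice, so p-values here measure the spread between these libraries, which may be technical in part.

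A class I molecule is a polymorphic heavy chain, encoded in C57BL/6 mice by H2-K1 and H2-D1, held together by the invariant light chain β2-microglobulin (B2m). Its peptides are cut from cytosolic proteins by the proteasome, of which Psmb8 and Psmb9 encode catalytic subunits of the immune form, and are pumped into the endoplasmic reticulum by the TAP transporter, a dimer of Tap1 and Tap2. Tapasin (Tapbp) holds the empty class I molecule at the transporter while a peptide is loaded. Nlrc5 encodes the transactivator that, with RFX, CREB/ATF and NF-Y proteins, drives transcription of class I genes from a shared set of promoter boxes. In HSCs, surface class I protects the cell from natural killer cells and allows its recognition by T cells.

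The libraries held 11102898 to 36579392 counts in the diet experiment and 35657999 to 44780217 in the knockdown experiment. Between 0.898% and 1.15% of the counts of a library fell on the 9 genes, and the lowest count of any of them in any library was 2069, so counting error was small beside the spread between libraries. The HSC markers Kit, Ly6a, Slamf1, Procr, Mecom, Hlf and Fgd5 were detected in every group. The old diet libraries stood apart from the young ones, with reads on 42071 to 46646 genes against 22209 to 33496. They also had 529.62 to 1485.53 counts per 1000000 counts (CPM) on 1736 olfactory and vomeronasal receptor genes, against 66.49 to 473.99. In OAL and YAL these ranges were 529.62 to 751.81 CPM and 108.78 to 219.99 CPM. The part of this background in the differences between ages was not tested. In bulk libraries, fewer cells of a type and less RNA per cell cannot be told apart.

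Of the 9 genes, 7 lie on mouse chromosome 17 in or beside the MHC, and 4 of these stand side by side. In mm10 coordinates with GENCODE M21 gene models, Psmb9 (chr17:34181987-34187764, minus strand) and Tap1 (chr17:34187553-34197225, plus strand) are divergent, and their exons share 212 bases. Psmb8 (chr17:34197721-34201454) and Tap2 (chr17:34203527-34216321) follow on the plus strand. Tapbp (chr17:33915899-33929292, plus strand), H2-K1 (chr17:33996017-34000347, minus strand) and H2-D1 (chr17:35262730-35267499, plus strand) lie to either side. B2m is at chr2:122147686-122153083 and Nlrc5 at chr8:94434356-94527272, both on the plus strand. H2-K1 and H2-D1 are near-identical over much of their length, and a read that fits both may have been dropped or shared in the counting. Antisense models also share exon bases with Psmb8 (498), Tap2 (533) and Tapbp (904), and without a stated strand setting reads of such partners cannot be told apart.

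The promoters of 5 members are shown because they carry both of 2 shared groups of letters. RefSeq promoter sequences (GRCm38.p6, the assembly of mm10) were matched for 7 of the 9 genes. The stretches just upstream of the start site are given 5′ to 3′ on the strand of the gene, at chr17:34000348-34000527 on the minus strand for H2-K1, chr17:35262914-35263093 for H2-D1 and chr2:122147507-122147686 for B2m. The 225 bases between the divergent starts of Psmb9 and Tap1 are given on the plus strand, at chr17:34187331-34187555. Capitals mark TGACG, the core of the X2 box or cAMP response element, and CCAAT, the core of the Y box, each on either strand (CCAAT reads ATTGG on the other).
H2-K1: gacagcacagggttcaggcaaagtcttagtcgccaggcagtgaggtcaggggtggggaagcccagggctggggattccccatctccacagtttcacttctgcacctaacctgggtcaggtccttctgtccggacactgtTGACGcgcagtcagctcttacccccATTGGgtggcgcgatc
H2-D1: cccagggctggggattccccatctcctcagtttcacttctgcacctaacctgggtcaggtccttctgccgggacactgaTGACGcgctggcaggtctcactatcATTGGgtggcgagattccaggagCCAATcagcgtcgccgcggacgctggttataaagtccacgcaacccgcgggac
B2m: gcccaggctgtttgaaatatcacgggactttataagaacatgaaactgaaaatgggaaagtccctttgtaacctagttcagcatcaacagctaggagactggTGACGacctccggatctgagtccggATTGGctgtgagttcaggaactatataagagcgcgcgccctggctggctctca
Tap1 and Psmb9: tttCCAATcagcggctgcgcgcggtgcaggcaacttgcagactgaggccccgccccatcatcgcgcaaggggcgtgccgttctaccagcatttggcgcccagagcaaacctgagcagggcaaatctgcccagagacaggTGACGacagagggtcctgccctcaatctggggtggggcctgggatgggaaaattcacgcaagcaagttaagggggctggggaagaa
H2-K1 carries CCAAT as well as ATTGG, like H2-D1. In H2-K1 this CCAAT begins 8 bases after the start used, outside the stretch shown. In H2-K1, H2-D1 and B2m, TGACG was followed by ATTGG with first bases 25 apart. This spacing was chosen after the sequences had been seen. It occurred in the promoters of 27 of 27025 genes (0.0999%), in 1 of 13 other class I heavy chain genes (H2-M3) and in 0 of 4 class II genes. In the 300 bases from 250 before to 50 after the start, TGACG was found in 5 of the 7 members and in 20.8% of 32851 promoters, and CCAAT in 6 of 7 and in 37.4%. The interferon-stimulated response core GAAANNGAA was found in B2m (8.56% of promoters). Another form of this core, GAANNGAAA, added after the sequences had been seen, was found in H2-K1 and H2-D1 (7.52%). An NF-kB-like GGGNNTTNC was found in H2-K1, H2-D1 and B2m (15.2%), and the gamma-activated TTCNNNGAA in Psmb8 (8.3%). GAGGAAGT, a core bound by PU.1, was found in 0 of the 7 (3.2%). Both strands were searched and the motifs may overlap. A match is a description of letters and says nothing about binding.

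In HSCs of the 6 diet groups, the genes of the class I molecule itself were expressed far above the genes that supply its peptides. On the scale of CPM per kilobase of exon (RPKM), the level of B2m was 2826.8 to 4690.6 with a median of 3330.4 over the 22 libraries. H2-D1 had a median of 1163.5 RPKM and H2-K1 of 998.8 RPKM, with ranges of 902.1 to 1357.9 and 784.7 to 1192.0 that overlapped. Both heavy chains were above 99.8% or more of the 12327 genes that averaged at least 5 CPM. Tapbp (median 109.2 RPKM, range 87.1 to 137.8) and Psmb8 (99.9 RPKM, 74.9 to 132.9) came next and also overlapped. Tap2 (58.4 RPKM, 39.8 to 68.5), Psmb9 (53.4 RPKM, 36.0 to 77.8) and Tap1 (36.1 RPKM, 28.1 to 44.9) followed, each range meeting the next. Nlrc5 was lowest, at 11.8 to 22.9 RPKM with a median of 16.4, below every library of the other 8 genes and above 68.1% of the genes compared. In the transplanted cells the order of the medians was the same except that Psmb8 (145.1 RPKM) stood above Tapbp (117.5 RPKM).

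**Figure D1:**
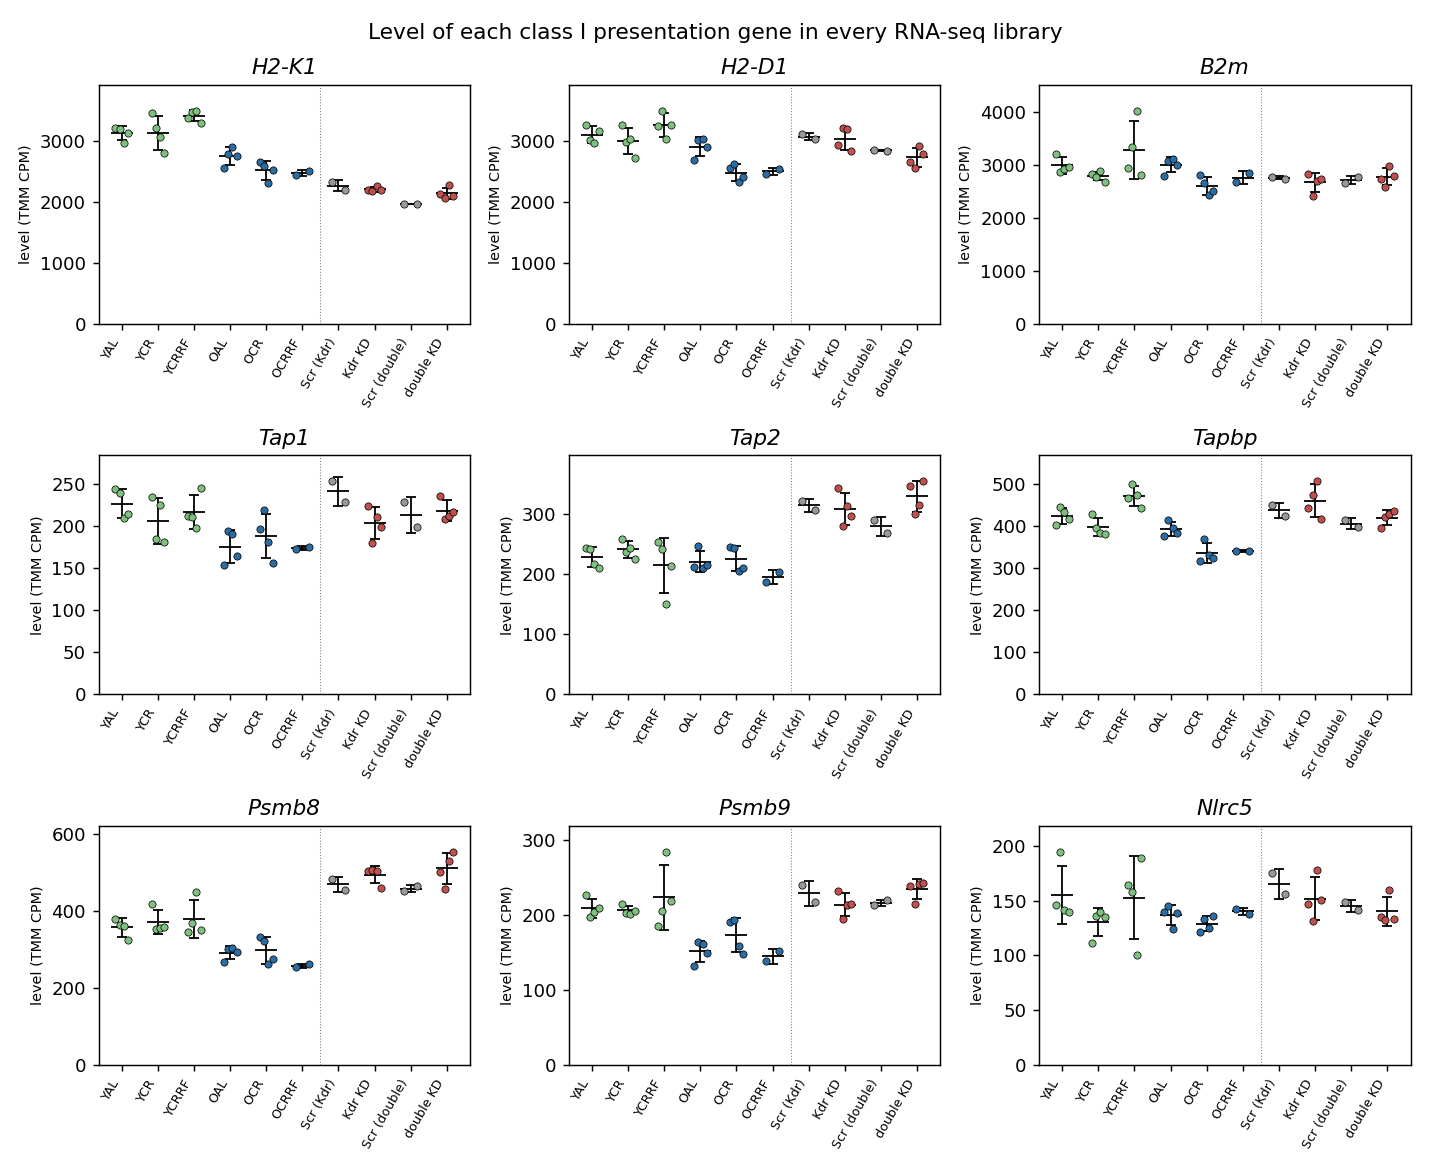
Levels of the 9 genes in every RNA library, as TMM CPM on linear axes that start at 0, with 1 point per library and bars at the group mean ± SD (n = 4, or 2 for OCRRF and the scrambles). A dotted line parts the diet libraries from the transplanted ones, which were scaled separately. Psmb9 in the 4 OAL libraries lies between 131.7 and 163.6 CPM, under all 4 YAL libraries, while B2m overlaps between these groups.

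The levels varied little between libraries. Over the 22 diet libraries the SD of the log2 CPM was 0.15 for B2m, 0.163 for H2-D1 and 0.185 for H2-K1, and only 2.23%, 3.98% and 8.88% of genes had a smaller SD. Psmb9 varied most, from 131.7 to 284.7 CPM with an SD of 0.271, and 40.3% of genes had a smaller one. Tapbp (SD 0.183), Tap2 (0.177), Tap1 (0.201), Nlrc5 (0.213) and Psmb8 (0.225) lay between them.

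Age was the comparison in which edgeR called members. In OAL against YAL it called 3 of the 9 genes (fold change above 1.2 with an adjusted p below 0.05), all of them lower in the old HSCs, and DESeq2 called 2 of these (Psmb9 and Tap1). Of 23525 genes tested by edgeR, 14.8% were called and 7.93% were called lower in OAL. DESeq2 called 7895 of 50838 genes fitted, and 1971 of these were lower in OAL. The 3 genes were the immunoproteasome subunits Psmb9 and Psmb8 and the transporter subunit Tap1, all in 1 stretch of chromosome 17. The median log2 fold change was -0.17 over the 9 genes and 0.05 over all genes tested.

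For Psmb9, which encodes the catalytic subunit β1i, the 4 YAL libraries had 226.8, 197.3, 203.3 and 208.9 CPM. The 4 OAL libraries had 131.7, 163.6, 161.0 and 148.8 CPM. All OAL libraries were below all YAL libraries, and the log2 fold change was -0.45 (SE 0.08, adjusted p = 0.00685). Psmb8, the subunit β5i, had 379.1, 363.9, 359.8 and 322.9 CPM in YAL. In OAL it had 266.9, 301.1, 302.3 and 293.4 CPM. These groups did not overlap either, and the log2 fold change was -0.28 (SE 0.07, adjusted p = 0.0219). Tap1 had 244.2, 240.1, 210.4 and 214.4 CPM in YAL. Its OAL libraries had 153.9, 194.3, 190.6 and 165.1 CPM. Every OAL library was again the lower, with a log2 fold change of -0.36 (SE 0.09, adjusted p = 0.0238). Psmb9 stayed called with any 1 library left out. Tap1 was no longer called without OAL replicate 1 (-0.30, adjusted p = 0.0779) or OAL replicate 4 (-0.33, 0.0823). Psmb8 was no longer called without OAL replicate 1 (-0.24, adjusted p = 0.0765), OAL replicate 2 (-0.30, 0.0539) or OAL replicate 4 (-0.29, 0.0626), and without YAL replicate 1 its fold change was under 1.2 (-0.26, 0.0285). With scaling factors taken from genes of at least 5 CPM, the fold changes were -0.25 for Tap1 (adjusted p = 0.0976) and -0.17 for Psmb8 (0.131), against -0.34 for Psmb9 (0.0243). Psmb8 was also not called with DESeq2 (-0.24, adjusted p = 0.0287) or with DESeq2 size factors in edgeR (-0.23, 0.0474), where its fold change was under 1.2, nor in 1 fit of all groups (-0.29, 0.0573). The antisense model Gm20496, which shares 498 exon bases with Psmb8, had a log2 fold change of -0.23 (adjusted p = 0.065).

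The other 6 genes did not pass the test for age. H2-K1 had 2549.6, 2795.2, 2897.1 and 2760.6 CPM in OAL, all under the lowest YAL library (2971.6 CPM), and a log2 fold change of -0.17 (SE 0.05, adjusted p = 0.055). H2-D1 (-0.08, adjusted p = 0.383), Tapbp (-0.10, 0.262), Tap2 (-0.04, 0.796) and Nlrc5 (-0.17, 0.301) overlapped between the ages. B2m stood at 0.02 with a 95% interval of -0.11 to 0.14. The fold changes of the peptide supply genes and of B2m are set side by side without a test of the difference between genes.

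**Figure D2:**
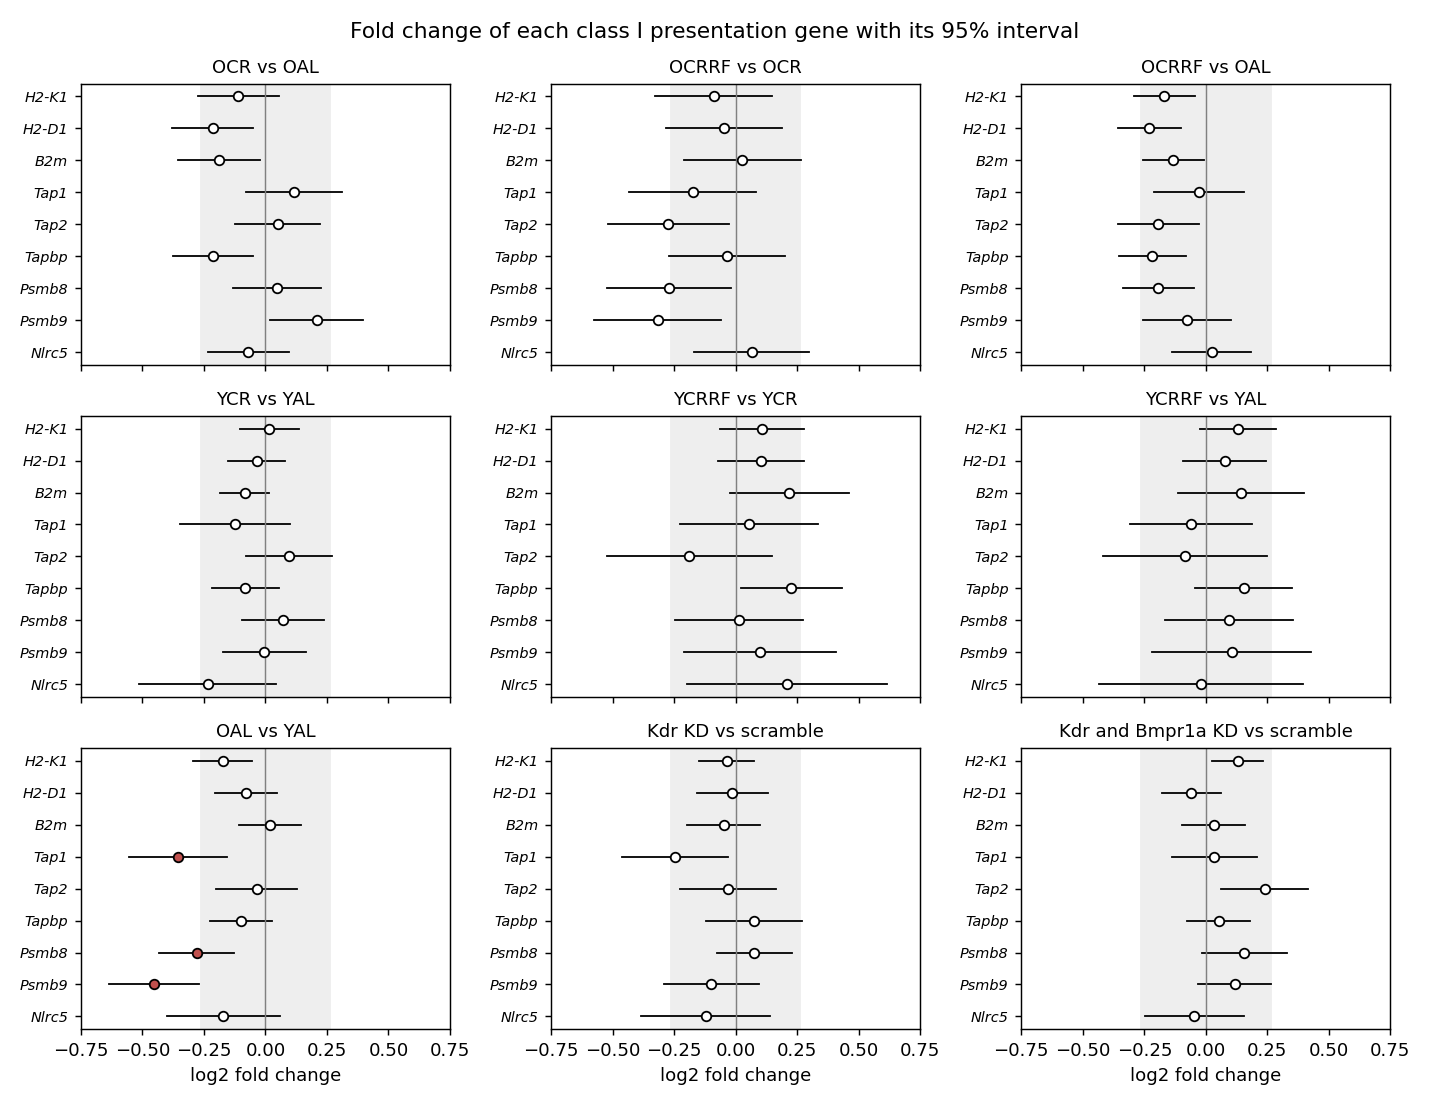
Log2 fold changes of the 9 genes in each comparison of RNA libraries, with 95% confidence intervals from the edgeR fit, a grey band for fold changes under 1.2 and red points where the gene was called. In OAL against YAL, Psmb9 (-0.45), Tap1 (-0.36) and Psmb8 (-0.28) are red, and in the other 8 comparisons no gene is.

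Some other genes of the supply side were lower in OAL as well. The counts of the lists stand beside 14.8% of all genes tested called, and 7.93% called lower in OAL. Of 14 other genes of trimming and loading, 4 fell and 0 rose (median -0.19, against 0.05 over all genes tested). Psmb10, which encodes the remaining catalytic subunit of the immunoproteasome, fell from 169.2 ± 14.3 CPM in YAL to 117.4 ± 7.69 in OAL (SD, n = 4 each), which gave -0.51 on the log2 scale (SE 0.08, adjusted p = 0.00368). Psme1 and Psme2, the subunits of the proteasome activator PA28, fell by 0.41 (SE 0.07, adjusted p = 0.00535) and 0.31 (SE 0.07, adjusted p = 0.018) on the log2 scale. The chaperone gene Hspa5 (BiP) fell by 0.46 (adjusted p = 0.0101). Of 14 constitutive subunits of the proteasome core that all cells use, 4 fell and 0 rose (median -0.20), among them Psmb5 (-0.38, adjusted p = 0.0197), whose place Psmb8 takes in the immune form, and Psmb6 (-0.33, 0.00898), whose place Psmb9 takes. Of 22 partners and upstream regulators of Nlrc5, 8 fell and 1 rose (median -0.26). The interferon regulatory factor genes Irf8 (-1.14, adjusted p = 0.00501) and Irf2 (-0.45, 0.0194) and the interferon-γ receptor chain Ifngr2 (-0.66, 0.0338) fell, and the NF-Y subunit Nfya rose (0.68, 0.00515). Of 24 interferon-response genes 5 fell and 0 rose (median -0.23), with Irf7 at -0.71 (adjusted p = 0.0173), Oasl2 at -0.45 (0.00646), Ifi44 at -0.42 (0.0425) and Gbp7 at -0.41 (0.0122).

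Of 20 other class I heavy chains 17 were tested, 2 rose and 1 fell, a share near the 14.8% called among all genes. H2-T3, a nonclassical chain known as the thymus leukemia antigen, rose from 6.0 ± 2.46 CPM in YAL to 18.8 ± 3.78 in OAL (1.66, SE 0.30, adjusted p = 0.00602), and H2-Q4 rose from 37.5 ± 1.49 to 51.0 ± 5.21 CPM (0.46, adjusted p = 0.0171). Fcgrt, the heavy chain of the neonatal Fc receptor, fell from 85.7 ± 5.94 to 60.9 ± 5.14 CPM (-0.48, adjusted p = 0.00811). The H2-Q and H2-T genes are copies of each other, and their reads may be shared in the counting. Of 7 class II genes 0 were called.

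Markers of other cells moved with age in the same libraries. The 7 B cell markers summed to 65.8 to 120.1 CPM in YAL and 41.6 to 48.2 CPM in OAL, with Cd79a at 12.7 ± 8.61 against 0.66 ± 0.202 CPM. The 3 genes of the surface proteins that the sort gates out (Cd34, Flt3 and Il7r) summed to 172.0 to 219.0 CPM in YAL and 128.4 to 160.9 CPM in OAL, and the 6 T and NK cell markers to 24.0 to 40.3 CPM in YAL and 59.0 to 69.8 CPM in OAL. The 8 granulocyte and monocyte markers summed to 444.8 to 883.0 CPM against 412.6 to 501.1 CPM, overlapping. Their part in the differences of Psmb8, Psmb9 and Tap1 was not tested.

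Lifelong CR left the class I genes within narrow limits. In OCR against OAL 0 of the 9 genes were called by edgeR and 0 by DESeq2, where 5.57% of 27150 genes were called by edgeR. An unadjusted p below 0.05 was found for 16.2% of all genes tested and for 4 of the 9. The log2 fold changes ran from -0.21 to 0.21 with a median of -0.07 (0.02 over all genes tested), and the 95% intervals reached at most a 1.3-fold lower or a 1.32-fold higher level. H2-D1 had 2685.5, 3009.5, 3041.1 and 2906.0 CPM in OAL and 2556.3, 2626.7, 2326.5 and 2415.8 CPM in OCR. The groups did not overlap, but the fold change of -0.21 (SE 0.08) had an adjusted p of 0.143. Tapbp had 376.5, 413.8, 396.3 and 383.6 CPM in OAL and 316.0, 369.1, 329.8 and 324.7 CPM in OCR, also without overlap (-0.21, SE 0.08, adjusted p = 0.134). Without OCR replicate 2, the highest of its group, Tapbp was called (-0.27, adjusted p = 0.0407). B2m (-0.19, adjusted p = 0.22) and Psmb9 (0.21, 0.252) overlapped between the groups and pointed in opposite directions. H2-K1 stood at -0.11, Nlrc5 at -0.07, Tap1 at 0.12, Tap2 at 0.05 and Psmb8 at 0.05.

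Of 14 other loading and trimming genes 4 rose in OCR and 0 fell (median 0.16), and the 4 encode chaperones of the endoplasmic reticulum that help to fold and load class I molecules. Hsp90b1 (GRP94) rose from 275.5 ± 15.0 CPM in OAL to 511.6 ± 54.7 in OCR (0.91, SE 0.09, adjusted p = 2.07e-08), Hspa5 from 366.5 ± 46.8 to 613.5 ± 91.0 CPM (0.76, 6.35e-06), calreticulin (Calr) from 625.9 ± 37.6 to 898.3 ± 94.8 CPM (0.54, 8.29e-05) and the disulfide isomerase Pdia3 from 541.8 ± 27.2 to 692.4 ± 78.8 CPM (0.37, 0.00607). These proteins serve many clients besides class I. The chaperone gene Canx (calnexin) stood at 0.23 (adjusted p = 0.113) and was not called. Of 17 other class I heavy chains tested 3 fell and 0 rose, namely Fcgrt (-0.33, adjusted p = 0.0308), the lipid-presenting Cd1d1 (-0.33, 0.0163) and H2-Q6 (-0.29, 0.0365). Of 24 interferon-response genes 3 fell, Ifit3 (-0.68, adjusted p = 0.0226), Gbp4 (-0.48, 0.0136) and Ifi44 (-0.38, 0.0179), and 0 rose. Among the 22 Nlrc5 partners and regulators Nfyb (0.32, adjusted p = 0.0381) and Creb1 (0.32, 0.0372) rose and 0 fell. Of 14 constitutive proteasome subunits and 7 class II genes 0 were called. Over all genes tested 5.57% were called. Markers of HSCs and of other cells differed between the same libraries. Of 8 HSC markers 4 fell and 0 rose (median -0.30), and they summed to 4032.2 to 4603.1 CPM in OAL and 3503.1 to 4165.0 CPM in OCR. Of 6 erythroid markers tested 4 fell and 0 rose (median -1.79), with overlapping sums of 32.8 to 227.2 and 26.7 to 67.1 CPM. The plasma cell marker Jchain fell (-5.03), the T and NK cell markers Nkg7 (0.81) and Klrb1c (-0.95) went opposite ways, and Itgam (0.99) and Cd68 (0.82) of the myeloid lists rose. The B cell and megakaryocyte lists and the genes gated out of the sort had 0 called. Their part in the differences between OCR and OAL was not tested.

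Refeeding was compared both with OCR and with OAL. The OCR libraries serve in this comparison and in the last one, and OCRRF had only 2 libraries. In OCRRF against OCR 0 of the 9 genes were called by edgeR and 0 by DESeq2, where 3.41% of 32577 genes were called by edgeR. The unadjusted p was below 0.05 for 16.9% of all genes tested and for 3 of the 9. Psmb9 had 190.0, 193.7, 158.8 and 148.2 CPM in OCR and 137.8 and 151.6 CPM in OCRRF, which overlapped (-0.32, SE 0.13, adjusted p = 0.184). Without OCR replicate 4, the lowest of its group, Psmb9 was called (-0.40, adjusted p = 0.0343). Psmb8 had 331.7, 321.0, 262.1 and 273.4 CPM in OCR and 253.2 and 260.4 CPM in OCRRF (-0.27, adjusted p = 0.258). Tap2 had 244.1, 243.3, 205.5 and 209.6 CPM against 186.3 and 203.2 CPM (-0.27, adjusted p = 0.239). For Psmb8 and Tap2 both refed libraries were below all OCR libraries, but neither passed the test. With only 2 refed libraries such a separation is a description, and its share over all genes was not counted. The other 6 genes lay between -0.18 (Tap1) and 0.06 (Nlrc5). The median was -0.09 over the 9 genes and 0.11 over all genes tested. Of the 14 other loading and trimming genes 6 fell and 0 rose, with Hspa5 (-0.97, adjusted p = 5.11e-06), Hsp90b1 (-0.95, 2.62e-06), Calr (-0.82, 4.34e-05) and Pdia3 (-0.61, 0.00194) leading. Of 24 interferon-response genes 3 rose and 0 fell, Gbp4 (0.73, adjusted p = 0.00166), Iigp1 (0.49, 0.0191) and Ifi44 (0.48, 0.0182), and Nfyb fell (-0.56, 0.0121). Of 7 class II genes Cd74, the invariant chain, rose (0.49, 0.0347). Markers of other cells differed here as well. Of 6 erythroid markers tested 3 rose and 0 fell (median 1.33), with sums of 26.7 to 67.1 CPM in OCR and 49.7 to 153.5 CPM in OCRRF. Of 4 megakaryocyte markers tested 3 fell and 0 rose (median -0.56, sums of 237.7 to 337.5 CPM against 207.8 to 208.5 CPM). Of 7 B cell markers 2 rose and 0 fell (sums of 41.3 to 48.5 CPM against 50.3 to 53.4 CPM). Of the HSC markers Ly6a rose (0.46) and Kit fell (-0.49), Klrb1c rose (0.73), and Nkg7 (-1.24) and Cd68 (-0.78) fell. Their part in the differences was not tested.

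In OCRRF against OAL 0 of the 9 genes were called by edgeR, where 4.14% of 31816 genes were. An unadjusted p below 0.05 was found for 26.9% of all genes tested and for 6 of the 9. DESeq2 called 4 of the 9, all lower in OCRRF, namely H2-D1, Psmb8, Tap2 and Tapbp. Over all 51950 genes fitted DESeq2 called 4503, and 3756 of these were lower in OCRRF. H2-D1 had 2465.6 and 2544.6 CPM in OCRRF, below the 4 OAL libraries given above (-0.23, SE 0.06). Its adjusted p was 0.0428, and it was not called because the fold change was under 1.2. Without OAL replicate 1 it was called (-0.28, adjusted p = 0.0453). Tapbp had 339.6 and 341.6 CPM in OCRRF, also under every OAL library (-0.22, SE 0.06, adjusted p = 0.0593). H2-K1 (-0.17, adjusted p = 0.0923), Psmb8 (-0.19, 0.0959) and Tap2 (-0.19, 0.131) had no overlap with OAL either, while B2m (-0.13, 0.163), Psmb9 (-0.08, 0.57), Tap1 (-0.03, 0.854) and Nlrc5 (0.02, 0.861) did. These values depended on the scaling. The median of all genes tested was 0.12 in this comparison, against -0.17 for the 9 genes, and across the alternatives the fold change of H2-D1 ran from -0.09 with scaling factors from genes of at least 5 CPM to -0.32 with DESeq2. Of 14 constitutive proteasome subunits 3 fell, Psma2 (-0.29, adjusted p = 0.0346), Psmb6 (-0.28, 0.0347) and Psmb2 (-0.27, 0.0375), and of the other loading and trimming genes only the nuclear proteasome activator Psme3 was called (-0.34, 0.0276).

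**Figure D3:**
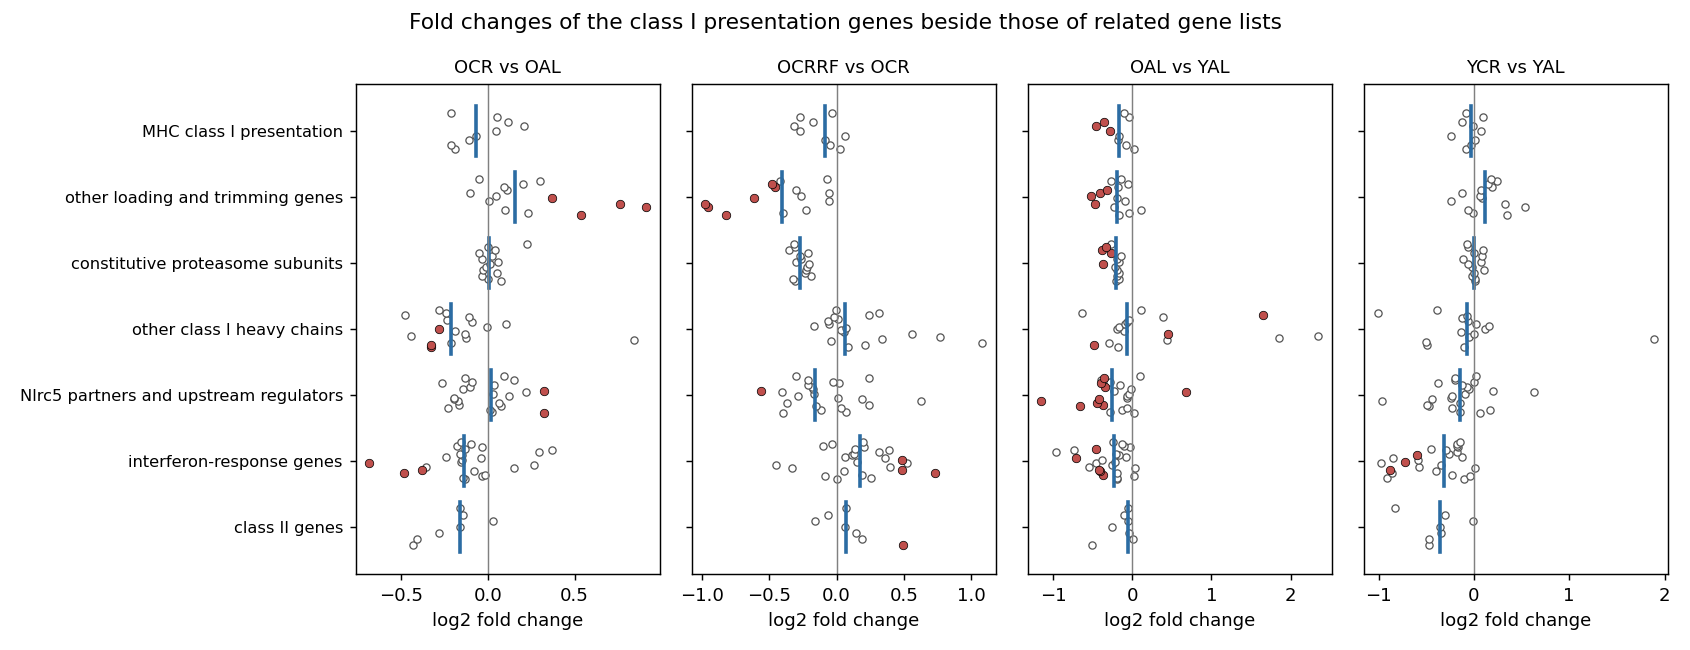
Log2 fold changes of single genes (points) in the 9 class I genes and in 6 lists of related genes, for 4 comparisons whose axes differ in scale, with a blue line at the median of each list and red points for genes called. The class I genes have red points only in OAL against YAL (3 lower), whereas the loading and trimming genes have 4 higher in OCR against OAL and 6 lower in OCRRF against OCR.

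In young mice, none of the 9 genes was called after short-term CR or refeeding. For YCR against YAL edgeR called 0 and DESeq2 0, where edgeR called 0.364% of 18680 genes. The unadjusted p was below 0.05 for 9.29% of all genes tested and for 0 of the 9. The fold changes ran from -0.23 (Nlrc5) to 0.10 (Tap2), and the 95% intervals reached a 1.43-fold lower or a 1.21-fold higher level. Nlrc5 had 145.5, 194.8, 141.7 and 139.5 CPM in YAL and 111.5, 136.1, 139.8 and 134.7 CPM in YCR. These overlapped by a small margin (-0.23, SE 0.13, adjusted p = 0.631). Of 24 interferon-response genes 3 fell in YCR, Ifi44 (-0.88, adjusted p = 0.0312), Igtp (-0.72, 0.0474) and Irgm2 (-0.60, 0.0474), and 0 rose. The median of that list was -0.32, against -0.04 for the 9 genes and 0.00 for all genes tested.

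For YCRRF against YCR, which shares the YCR libraries, edgeR called 0 of the 9 and DESeq2 0, where edgeR called 0.0102% of 19535 genes. An unadjusted p below 0.05 was found for 7.27% of all genes tested and for 1 of the 9. That gene was Tapbp, at 467.1, 499.8, 473.3 and 441.6 CPM in YCRRF against 427.3, 396.2, 383.7 and 382.0 CPM in YCR. The groups did not overlap (0.23, SE 0.09, adjusted p = 0.613). For YCRRF against YAL edgeR called 0 of the 9 and DESeq2 0, and edgeR called 0% of 19334 genes. The unadjusted p was below 0.05 for 3.69% of all genes tested and for 0 of the 9. H2-K1 in YCRRF (3378.6, 3470.1, 3502.1 and 3304.7 CPM) was above all YAL libraries (3216.3, 3194.8, 2971.6 and 3137.2 CPM), with a fold change of 0.13 (SE 0.07, adjusted p = 0.995). YCRRF replicate 3 stood apart over all genes, with a chi-square per degree of freedom of 133.7 to 292.5 against the other 3 libraries of its group, which differed by 25.8 to 49.6 among themselves. Without it 0 of the 9 genes were called in either comparison. It had the highest level of B2m (4033.9 CPM), Psmb8 (449.2 CPM) and Psmb9 (284.7 CPM) of the 22 diet libraries and the lowest of Tap2 (150.5 CPM) and Nlrc5.

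Whether CR acted differently by age was tested as the difference between OCR against OAL and YCR against YAL. For this difference edgeR called 0 of the 9 genes and DESeq2 0, where edgeR called 0.0318% of 28328 genes. An unadjusted p below 0.05 was found for 8.8% of all genes tested and for 0 of the 9. The differences ran from -0.18 (H2-D1, 95% interval -0.37 to 0.01) to 0.24 (Tap1, -0.09 to 0.57). A difference of up to 1.29-fold in the lower or 1.48-fold in the higher direction was therefore within the intervals.

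The knockdown libraries were first checked for the targeted genes. Kdr, the VEGF receptor gene targeted by the shRNA, had 6.04 and 6.07 CPM in KdrScr and 1.93, 2.21, 3.28 and 2.03 CPM in KdrKD. All 4 were lower, with a log2 fold change of -1.35 (adjusted p = 0.247). In the double knockdown Kdr had 3.97 and 4.62 CPM in the scramble and 1.24, 0.555, 1.6 and 1.35 CPM in the knockdown (-1.86, adjusted p = 0.272). Bmpr1a, a BMP receptor gene, had 5.21 and 4.43 CPM in the scramble and 4.44, 0.656, 2.22 and 0.595 CPM in the knockdown (-1.29, adjusted p = 0.602). Replicate 1 of the double knockdown thus had as much Bmpr1a as a control.

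None of the class I genes was called after knockdown of Kdr. In KdrKD against its scramble edgeR called 0 of the 9 and DESeq2 0, where edgeR called 0.0149% of 20098 genes. The unadjusted p was below 0.05 for 8.9% of all genes tested and for 1 of the 9. That gene was Tap1, with 254.1 and 229.5 CPM in KdrScr and 224.5, 179.9, 211.3 and 199.3 CPM in KdrKD. All 4 knockdown libraries were lower (-0.25, SE 0.09, adjusted p = 0.506). H2-K1 stood at -0.04 (95% interval -0.15 to 0.08), H2-D1 at -0.01 (-0.16 to 0.13) and B2m at -0.05 (-0.20 to 0.10). In the same libraries 2 of 7 class II genes fell. Cd74 fell from 505.7 ± 71.6 CPM (SD, n = 2) to 205.3 ± 22.2 CPM (SD, n = 4), a log2 fold change of -1.30 (SE 0.11, adjusted p = 0.0114), and the class II α chain H2-Aa fell from 176.2 ± 29.7 to 89.5 ± 4.9 CPM (-0.98, SE 0.10, adjusted p = 0.0367). The median of the 7 was -0.98, against -0.04 for the 9 class I genes and -0.00 for all genes tested. Both calls were lost when single libraries were left out, since of all genes tested 1 was called without KdrKD replicate 1 and 0 were called without KdrKD replicate 3, without KdrKD replicate 4 or without either scramble library, and also 0 in 1 fit of all groups. The other lists had 0 called. The 8 HSC markers summed to 3297.8 to 3499.0 CPM in KdrScr and 2711.1 to 3110.3 CPM in KdrKD. Cd34, Flt3 and Il7r summed to 394.4 to 469.8 against 485.3 to 580.3 CPM, and the 7 B cell markers to 33.2 to 39.9 against 41.1 to 60.6 CPM. The sums of the other marker lists overlapped, with the granulocyte and monocyte markers at 664.4 to 1551.8 against 923.3 to 2586.2 CPM. Their part in the differences was not tested.

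In the double knockdown edgeR called 0 of the 9 genes and DESeq2 0, where edgeR called 0.00498% of 20072 genes. An unadjusted p below 0.05 was found for 9.85% of all genes tested and for 2 of the 9. Tap2 had 290.6 and 267.9 CPM in the scramble and 346.5, 300.6, 315.4 and 354.7 CPM in the knockdown, without overlap (0.24, SE 0.08, adjusted p = 0.386). H2-K1 had 1962.3 and 1962.5 CPM against 2134.2, 2072.6, 2271.0 and 2097.9 CPM, also without overlap (0.13, SE 0.05, adjusted p = 0.427). With only the libraries of Bmpr1a shRNA 1 or only those of shRNA 2, 0 genes were called, and also 0 without replicate 1. The Tap2 fold change was 0.22 with shRNA 1 and 0.26 with shRNA 2. For the difference between the knockdowns edgeR called 0 of the 9 and DESeq2 0, and edgeR called 0% of 21250 genes. The unadjusted p was below 0.05 for 3.58% of all genes tested and for 2 of the 9 (H2-K1 at 0.16 and Tap2 at 0.27). In the double knockdown 0 of the 7 class II genes were called, with a median of 0.05. Cd34, Flt3 and Il7r summed to 489.5 to 532.5 CPM in its scramble and 587.3 to 915.0 CPM in the double knockdown. The B cell markers summed to 33.8 to 43.4 against 46.6 to 59.6 CPM, and the sums of the other marker lists overlapped. Their part was not tested here either.

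How the 9 genes varied together was described over the 22 diet libraries, with each gene centred within old and within young. Of 36 pairs 29 had a positive Pearson r, from -0.54 to 0.84 with a median of 0.28. The highest were the heavy chains H2-D1 and H2-K1 (0.84), which share near-identical sequence, and the proteasome subunits Psmb9 and Psmb8 (0.80). Tapbp went with H2-D1 (0.76) and H2-K1 (0.71). Nlrc5, the transactivator, ran against the proteasome subunits, with an r of -0.54 with Psmb8 and -0.52 with Psmb9. Within the old and the young libraries it was -0.44 and -0.65 with Psmb8 and -0.56 and -0.62 with Psmb9. YCRRF replicate 3, which stood apart, was among the young libraries. Some pairs had opposite signs in the old and the young libraries, such as Psmb9 with Tap2 (0.77 in old, -0.83 in young). YCRRF replicate 3 had the highest Psmb9 (284.7 CPM) and the lowest Tap2 (150.5 CPM) of the diet libraries. The r in young libraries was not worked out without it, so no difference between ages can be read from this pair. Of 11986 genes, those most like the mean of the members were Marc2 (r = 0.80), Slc25a39 (0.78), Rnf166 (0.78), Sdsl (0.77) and Csnk1g2 (0.75). The points share libraries, depth and scaling, so these values are descriptions with no test.

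At the chromatin level, the RefSeq starts of all members but Nlrc5 lay near an accessible peak and carried the active mark, and Nlrc5 had an accessible peak at another start. ATAC-seq measures accessible DNA, and the 4 OCR and 2 OCRRF libraries held 15721335 to 19558148 counts in 131918 consensus peaks. The OAL libraries of ATAC-seq were not analysed here. A peak lay within 1 kb of the RefSeq start of 8 of the 9 members, against 66.6% of 25127 genes, and Tap1 and Psmb9 shared 1 peak. The peak of Tap1 and Psmb9 (chr17:34186897-34187985) was the most accessible, at 34.96 to 39.33 CPM in OCR and 41.45 and 41.44 CPM in OCRRF, above 96.4% of peaks. H2-D1 (chr17:35262577-35263508) had 25.25, 28.72, 28.44 and 25.67 CPM in OCR and 30.75 and 30.52 CPM in OCRRF. The groups did not overlap, but the log2 fold change of 0.18 (SE 0.09) had an adjusted p of 0.436. H2-K1 stood at 0.16 (adjusted p = 0.457). Of the 8 distinct peaks edgeR called 0 and DESeq2 0 (fold change above 1.5 with an adjusted p below 0.05), where edgeR called 0.221% of 123372 peaks. An unadjusted p below 0.05 was found for 14439 of all peaks tested and for 0 of the 8. The fold changes of the 8 ran from -0.07 to 0.18, with a median of -0.01 over all peaks.

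H3K4me3, the histone mark of active promoters, was measured in 2 OCR libraries, as the mean signal over 750 bp from each start. The 8 members other than Nlrc5 had 42.9 to 61.3 in replicate 1 and 39.0 to 59.8 in replicate 2, where the median of 31552 promoters was 10.2 and 9.64. B2m was highest in both libraries (61.3 and 59.8), above 99.95% or more of promoters. H3K27me3, the mark of Polycomb repression, was 0.0233 to 0.273 over 2000 bp at the same 8 genes, under the medians of 0.312 and 0.316. The RefSeq start of Nlrc5 (chr8:94472763) had 0.315 and 0.203 of H3K4me3 and no ATAC peak within 1 kb. The first GENCODE start of Nlrc5 lies upstream at chr8:94434356, and a consensus peak there (chr8:94433823-94434736), looked up after these values were seen, had 18.07, 23.57, 20.0 and 22.56 CPM in OCR and 21.57 and 18.82 CPM in OCRRF (-0.05, adjusted p = 0.904). The H3K4me3 values at the RefSeq start therefore do not cover the start that was accessible in these cells.

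**Figure D4:**
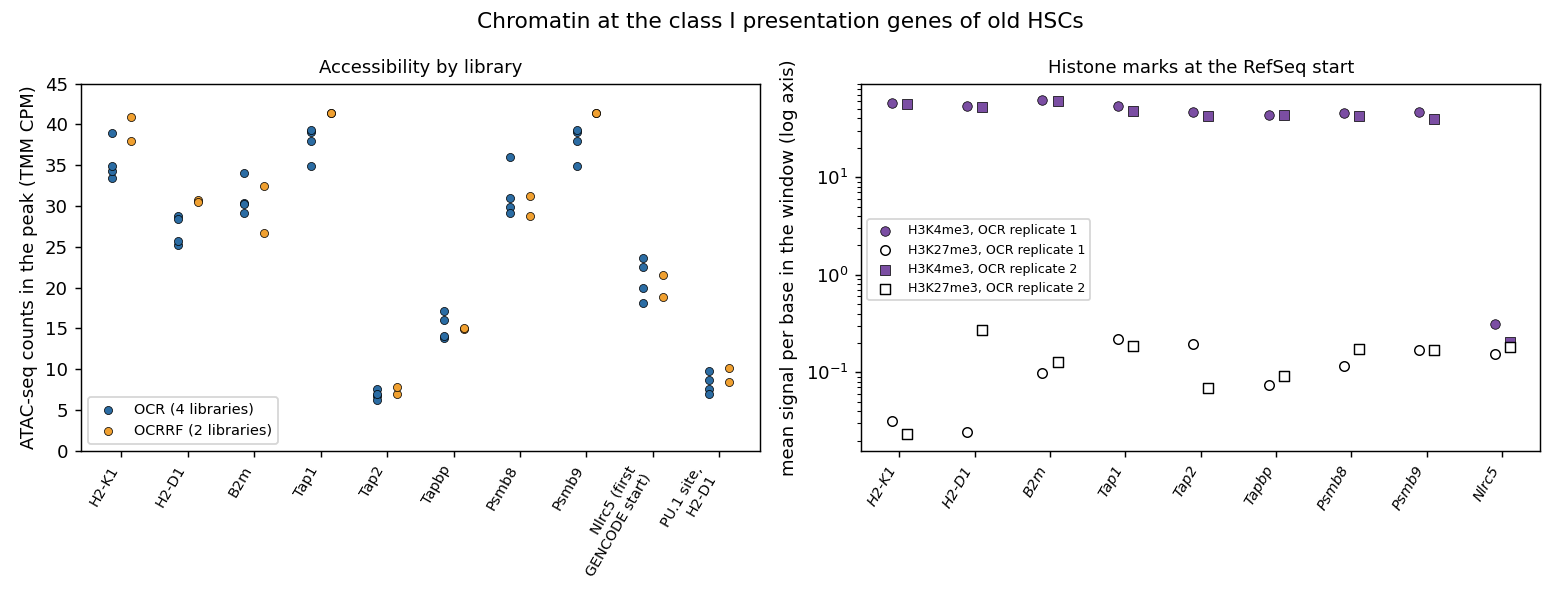
Chromatin at the promoters of the 9 genes, with the ATAC counts of the promoter peak in TMM CPM by library on the left and, on a log axis on the right, the H3K4me3 (filled) and H3K27me3 (open) signal of both OCR libraries at the RefSeq start. Tap1 and Psmb9 show the same peak, and the rightmost columns of that panel are the peak at the first GENCODE start of Nlrc5 and the peak over the PU.1 site upstream of H2-D1. The 8 genes other than Nlrc5 have an H3K4me3 signal between 39.0 and 61.3, and Nlrc5 has 0.315 and 0.203.

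PU.1, a transcription factor of blood cells, was mapped by ChIP-seq in OAL, OCR and OCRRF HSCs, with 2 libraries per group. The libraries given as OAL are titled OWT and were taken as the old mice without CR. The authors called peaks on each library, and 1.93% to 4.93% of genes had a peak within 1 kb of the start. Of the 9 members 0 did in any of the 6 libraries. For Nlrc5 the searches within 1 kb and within 10 kb used only the RefSeq start. Its first GENCODE start, where the accessible peak lay, was not searched. Within 10 kb, where 4.72% to 11.2% of genes had a peak, H2-D1 was the only member with one, and it had one in all 6 libraries. The summits lay 3787 to 3840 bases upstream of its start. The fold enrichment over background was 10.1 and 12.0 in OAL, 12.5 and 7.53 in OCR and 7.45 and 14.5 in OCRRF, and the −log10 of the q-value ran from 7.36 to 24.5. The replicates of a group differed by as much as the groups, so no order of the diets can be read. The 241 bases common to the 6 peaks (chr17:35259149-35259389, plus strand, RefSeq GRCm38.p6) are shown because they hold the PU.1 core 2 times. Capitals mark ACTTCCTC, which reads GAGGAAGT on the other strand.
PU.1 site upstream of H2-D1: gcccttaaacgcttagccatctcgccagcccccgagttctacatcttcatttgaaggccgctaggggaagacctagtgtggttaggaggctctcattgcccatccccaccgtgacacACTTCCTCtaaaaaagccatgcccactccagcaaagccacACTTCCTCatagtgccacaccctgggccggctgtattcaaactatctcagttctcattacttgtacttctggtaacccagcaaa
GAGGAAGT occurred 1 or more times in 36.0% to 39.9% of windows of the same length at PU.1 summits and in 6.31% of those at the centres of ATAC peaks, and 2 or more times in 1.49% to 1.95% and 0.177%. The ATAC peak over this site (chr17:35259100-35259407), looked up after the PU.1 peaks were seen, had 7.631, 8.634, 6.913 and 9.786 CPM in OCR and 8.392 and 10.13 CPM in OCRRF, with overlap (0.17, SE 0.17, adjusted p = 0.75).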

How the data were processed

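RNA-seq libraries of 10 groups (34 libraries), ATAC-seq libraries of OCR and OCRRF, histone ChIP-seq libraries of OCR and PU.1 ChIP-seq libraries of OAL, OCR and OCRRF were analysed from deposited values, without the reads. Groups and replicate numbers came from the labels. The PU.1 libraries titled OWT, whose treatment label is control or none, were read as OAL, the group the study's text names for this assay. For OAL, the ATAC-seq and histone libraries were not analysed here. The members and the lists of related genes were chosen with earlier results of these data known.

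For RNA-seq, the authors removed adapters with trim galore and cutadapt, aligned to mm10 with STAR and GENCODE M22 genes and deposited featureCounts counts per gene. The strand and multi-mapping settings are not given in the sources used here, and the library kit is named differently in the labels and in the methods. For ATAC-seq, the authors mapped with BWA, called peaks with MACS and deposited counts per consensus peak. The histone files deposited by the authors hold a signal for each promoter (mean coverage per base), scaled per library. For PU.1 the authors deposited, for each MACS peak of each library, a score, the ratio to background (fold enrichment), and p-value and q-value as −log10. The antibody of PU.1 replicate 2 is not in its label. The deposited histone and PU.1 values come without counts. The paper's reporting summary lists read numbers for the ChIP-seq libraries, with fewer mapped reads for PU.1 than for the histone marks. These read numbers were not used here. Columns of no mapped sample numbered 0.

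The counts were fitted with edgeR 4.0.16 in R 4.3.3 (filterByExpr by group, TMM, glmQLFit and glmQLFTest, two-sided), each comparison on its own groups, with Benjamini-Hochberg adjustment over all genes or peaks tested. A gene was called at a fold change above 1.2 with an adjusted p below 0.05, and a peak at a fold change above 1.5 with a mean log2 CPM above 1.5. SEs were derived from the F value as the size of the log2 fold change over its root. Intervals are at the 95% level and not adjusted. DESeq2 1.42.0 was an alternative. CPM values were TMM scaled, and RPKM divides them by the union exon length of the GENCODE M21 models, so the diet and knockdown libraries, which were sequenced on different instruments and scaled separately, were not compared. Tables and figures were made with Python 3.11.15, pandas 2.3.3 and matplotlib 3.10.9. The main edgeR fits of the 9 comparisons of 2 RNA groups were tested on simulated data, and the other fits were not.

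All 9 members are named in each comparison. Overlap between groups is given as a description, and the share of all genes or peaks without overlap was not counted. Of each other list, at most 4 called genes averaging at least 5 CPM are named, by absolute fold change. The 5 genes most like the members were taken by Pearson r over the 22 diet libraries. The alternatives were other scalings, filters, DESeq2, a replicate block, 1 fit of all groups, no fold change minimum and each library left out. Replicate numbers are shared between groups, but same-numbered libraries did not deviate together, so the numbers were not used as pairs.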

Additional observations from a re-analysis of the deposited data

Results flagged for a closer look

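Of 63 sets of 4 libraries tested (each gene in each group of 4), 6 held 1 library set apart from the other 3 by Dixon's ratio at its 95% critical value, and chance sets apart about 1 in 20. Tap2 in OAL replicate 2 was high (246.7 CPM, the others 209.2 to 215.2, ratio 0.841). Psmb8 in YCR replicate 1 was high (418.1 CPM, the others 351.8 to 358.4, ratio 0.9). Nlrc5 in YAL replicate 2 was high (194.8 CPM, the others 139.5 to 145.5, ratio 0.892). In the transplanted cells, Psmb8 in KdrKD replicate 4 was low (460.2 CPM, the others 503.9 to 505.0, ratio 0.975). Psmb9 in KdrBmpr1aKD replicate 2 was low (214.1 CPM, the others 238.8 to 243.0, ratio 0.856), and Nlrc5 in KdrBmpr1aKD replicate 3 was high (159.4 CPM, the others 132.5 to 135.0, ratio 0.906). None of these libraries was among those without which a call of the same gene changed.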

How the results depend on the processing

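The number of the 9 genes called was 0 in YCR against YAL, YCRRF against YCR, YCRRF against YAL, both knockdowns and both tests of a difference under every alternative run, with any 1 library left out as well (0 to 0). In OCR against OAL it ran from 0 to 1 with 1 library left out. In OCRRF against OCR it ran from 0 to 1, and in OCRRF against OAL from 0 to 1. In OAL against YAL it ran from 1 to 3. There it was 1 with scaling from genes of at least 5 CPM, 1 with at least 10 counts in every library and 1 with the replicate block, and the 1 gene was Psmb9, called under every alternative (-0.34 to -0.49). In OCRRF against OAL it was 4 with DESeq2, 2 with DESeq2 size factors in edgeR and 1 with no fold change minimum. In OCRRF against OCR the replicate block gave 3 genes (Psmb8, Psmb9 and Tap2). Same-numbered libraries correlated at -0.17 to 0.185 over the comparisons, so the numbers do not pair them, and the cause of the change was not tested. The ATAC peaks called stayed at 0 (0 to 0 with 1 library left out). Members with a PU.1 peak numbered 0 within 1 kb of a RefSeq start and 1 within 10 kb.

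Over all 1575 single-gene values under alternatives, 1460 kept direction and side of the threshold, 15 lost the call, 13 gained it, 87 uncalled values changed sign and 0 called values did. Calls over all genes moved more. In OAL against YAL they were 3486 (1620 higher, 1866 lower), 7895 (5924, 1971) with DESeq2, 2656 (1872, 784) with scaling from genes of at least 5 CPM, 6671 (4485, 2186) with no filter, 1852 (983, 869) with at least 10 counts in every library and 1651 (626, 1025) with the replicate block. In OCRRF against OAL they were 1316 (528 higher, 788 lower), 4503 (747, 3756) with DESeq2, 3215 (849, 2366) with size factors, 808 (754, 54) with scaling from genes of at least 5 CPM, 2684 (1199, 1485) with no filter, 2080 with the replicate block and 0 in 1 fit of all groups, which called 212 in OCR against OAL and 64 in OCRRF against OCR. These last 2 had 1511 (689 higher, 822 lower) and 1110 (226, 884), the first 1592 (894, 698) with scaling from genes of at least 5 CPM, the second 914 (341, 573) with that scaling, 2349 with DESeq2 and 3437 with the replicate block. Under that scaling the all-gene median (log2) went from 0.05 to 0.16 with age, from 0.12 to 0.26 in OCRRF against OAL and from 0.11 to 0.24 in OCRRF against OCR, and members shift with it. In YCR against YAL, 68 genes became 511 with DESeq2 and 7 with the replicate block. In KdrKD, 3 genes became 261 with DESeq2, 82 with no filter and 26 with the replicate block, and in the double knockdown 1 became 332 with DESeq2. Groups of 2 libraries (OCRRF and the scrambles) limit what could be called, and the PU.1 and histone values come without counts.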
